A study of Sus scrofa with 32 samples.

Results

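The 9 genes described here restrain the cell cycle and were followed across 3 histone marks: CDKN1A, CDKN1B and CDKN1C of the CIP/KIP family, CDKN2A, CDKN2B and CDKN2C of the INK4 family, and RB1, RBL1 and RBL2, the retinoblastoma family. They are 9 of the 19550 protein-coding genes placed on pig chromosomes, and were chosen by name. For each gene, the peaks of all 24 peak lists that overlapped its span extended by 10 kb on either side were collected, by mark and by group. By symbol, 8 of the 9 genes were found among the Sscrofa11.1 gene entries. CDKN2A has no entry of that symbol there, and its place is taken by the entry P14ARF, named after the alternative-reading-frame product of the same locus, so CDKN2A below means the span of that entry.

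The study profiled cultured satellite cells of pig muscle, from which muscle fibres regenerate, with CUT&Tag, in which an antibody directs a transposase to cut and tag the DNA around a modified histone. Cells labelled CBP received SGC-CBP30, an inhibitor of the bromodomains of the acetyltransferases CREBBP and EP300, and cells labelled WT were the untreated controls. The groups were CBP at 60 h of differentiation (60 h with the compound), WT at 60 h, CBP at 0 h, the proliferation stage (48 h with the compound), and WT at 0 h, with 2 libraries per mark and group and 24 peak lists in all. The dose is labelled 5 uM/ml, a unit the sources do not explain, and 8 IgG samples were not analysed here. The label fields conflict, since a cell line entry names C3H, the growth entry names RPMI medium, and the treatment entry of the 60 h samples still speaks of proliferation, so time was taken from the titles and cell type from its own field. Nothing states that the 2 libraries of a group came from separate cultures, so p-values measure only the spread between libraries, which may be technical.

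Progress from G1 into S phase is driven by cyclin-dependent kinases (CDKs). CIP/KIP proteins bind cyclin-CDK complexes, INK4 proteins bind CDK4 and CDK6 themselves, and both keep the retinoblastoma proteins unphosphorylated, a state in which these hold E2F transcription factors at S-phase genes. Myoblasts must leave the cell cycle before they fuse, and the CIP/KIP proteins and RB1 are known for their part in that exit. H3K4me3 marks active and poised promoters, H3K27ac marks active promoters and enhancers, and H3K27me3 is the Polycomb mark, for which the INK4/ARF locus is a textbook target in proliferating cells.

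The measure used throughout is the number of kilobases (kb) of a gene's extended span that lie under peaks in a library, so it describes how far a mark was called, not how strong it was. H3K4me3 lists held 14898 to 17364 peaks over 17.3 to 27.6 Mb, H3K27ac lists 8969 to 23437 peaks over 4.77 to 20.2 Mb, and H3K27me3 lists 1338 to 19317 peaks over 1.11 to 34.67 Mb. Covered length differed most in H3K27me3, with a mean of 29.9 ± 6.75 Mb in CBP lists at 0 h and 2.11 ± 1.42 Mb in WT lists at 0 h (SD, n = 2 each). No comparison of list totals can fall below 0.3333 in an exact two-sided permutation test with 2 libraries a side. Read depth was not given, so how many reads stand behind a length is unknown, and a longer list adds length at most genes. The share of peaks that reached a −log10 q of 5 was 84.6 to 91.3% for H3K4me3, 30.8 to 56.8% for H3K27ac and 0 to 12.6% for H3K27me3.

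PAX7 and MYF5, markers of satellite cells, had H3K4me3 and H3K27ac in every library of those marks. PAX7 had 5.46 and 5.54 kb of H3K4me3 in CBP libraries at 60 h, 10.8 and 9.53 kb in WT libraries at 60 h, 5.05 and 4.30 kb in CBP libraries at 0 h and 9.20 and 9.52 kb in WT libraries at 0 h. MYOG, a factor of differentiating muscle, had no H3K4me3 peak in any of the 4 libraries at 0 h, and MYOD1, the myoblast determination factor, had none in either CBP library at 0 h. H3K27ac was missing at MYOD1 at 0 h and in CBP at 60 h. Of the other myogenic markers, PAX3 had no H3K27ac in any library, and CDH15 had none at 0 h or in WT at 60 h. MYF5 and MYF6 share a locus and had the same 3.64 and 2.16 kb of H3K27ac in CBP libraries at 0 h. The sums below count bases shared by windows once per gene. Summed over 9 myogenic markers, H3K27ac came to 26.1 to 28.2 kb in CBP libraries at 60 h and 53.3 to 59.3 kb in WT libraries at 60 h. At 0 h H3K27ac came to 9.70 to 13.3 kb in CBP libraries and 26.6 to 28.2 kb in WT libraries. Over 8 genes of differentiated muscle it covered 6.10 to 11.11 kb in CBP and 15.2 to 18.1 kb in WT libraries at 60 h, against 0.552 to 0.909 kb in CBP and 1.51 to 2.64 kb in WT libraries at 0 h. Over 7 fibroblast genes it covered 10.7 to 13.0 kb in CBP and 26.5 to 30.7 kb in WT libraries at 60 h, and 1.72 to 2.22 kb in CBP and 7.003 to 7.51 kb in WT libraries at 0 h. The lists of 6 endothelial, 6 immune, 5 adipocyte and 4 neural and glial genes reached at most 3.17, 7.12, 0.312 and 0 kb of H3K27ac in any library, with the leukocyte genes PTPRC and CD3E at 0 throughout. The other 4 immune genes had H3K27ac in both WT libraries at 60 h, among them CD68, a macrophage gene, with 0.325 and 0.69 kb in CBP and 2.78 and 2.86 kb in WT libraries at 60 h. H3K4me3 summed over the 6 immune genes covered 15.87 to 16.2 kb in CBP and 13.95 to 15.02 kb in WT libraries at 60 h, and 10.999 to 11.42 kb in CBP and 11.7 to 12.2 kb in WT libraries at 0 h. These marker sums move with the groups compared below, and their part in the results was not tested.

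Windows ran from 22.7 kb at CDKN1C to 150.9 kb at RB1, and a peak of a given length is a smaller share of a longer window. The order by share is therefore not an order by amount of mark. The largest share under H3K4me3 was at CDKN1B (window 24.6 kb), with a mean of 37.6% over the 8 libraries (range 30.5 to 41.8%). CDKN2C followed with 31.4% (28.6 to 34.2%) and CDKN1A with 14.5% (8.12 to 21.0%). The means of CDKN2A, CDKN2B, CDKN1C, RBL2, RB1 and RBL1 were 8.43, 5.23, 4.98, 4.09, 3.33 and 2.15%. Ranges overlapped between CDKN1B and CDKN2C, between CDKN1A and CDKN2A, between CDKN1C and each of its neighbours in that order, and between RBL2 and RB1. They did not overlap between CDKN2C and CDKN1A, CDKN2A and CDKN2B, or RB1 and RBL1. For H3K27ac the order began with CDKN1B, CDKN1A and CDKN2C at 26.3, 12.5 and 10.3% and ended with CDKN1C at 0.17%, with overlapping ranges for each of those first pairs. H3K27me3 was listed at 3 of the 9 genes, CDKN2A, CDKN1C and CDKN2B, and at none of the other 6 in any library.

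CDKN1A, on chromosome 7 at chr7:32354776-32363771 (gene 100152215), encodes p21, the CIP/KIP inhibitor that p53 switches on and that accumulates in differentiating myoblasts. H3K27ac covered 2.12 and 2.38 kb of its window in CBP libraries at 60 h, 5.64 and 6.29 kb in WT libraries at 60 h, 0.537 and 0.267 kb in CBP libraries at 0 h, and 6.32 and 5.35 kb in WT libraries at 0 h. Both CBP libraries lay below both WT libraries at each time, and the WT libraries of the 2 times overlapped. On the log2 scale of length plus 500 bp, used for every change below, H3K27ac at CDKN1A was lower with CBP, with a change of −1.23 ± 0.18 at 60 h (SE, n = 2 libraries a group, adjusted p = 0.00381) and of −2.82 ± 0.18 at 0 h (adjusted p = 0.000748). The test is the moderated test of limma over the 8 libraries of a mark, with Benjamini-Hochberg adjustment over all 11171 genes tested for H3K27ac. The change at 0 h was lower than that of all but 0.12% of the genes tested, whose median was −0.49.

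The 3 H3K27ac regions below or over the low-coordinate end of CDKN1A held nearly all of this length. A region centred 9.6 kb below that end, chr7:32344340-32345962, was absent from both CBP lists and present in both WT lists at each time, at 0.870 and 0.725 kb in WT at 60 h and 1.62 and 1.37 kb in WT at 0 h. A second region centred 7.0 kb below it, chr7:32346737-32348858, had 0.609 and 1.70 kb in CBP libraries at 60 h, 0.964 and 1.36 kb in WT libraries at 60 h, none in CBP libraries at 0 h and 1.05 and 1.14 kb in WT libraries at 0 h. It was thus listed under CBP at 60 h and in neither CBP library at 0 h. Over the low end itself, chr7:32351540-32356379 held 1.51 and 0.678 kb in CBP and 3.45 and 3.69 kb in WT libraries at 60 h. At 0 h it covered 0.537 and 0.267 kb in CBP and 4.08 and 2.75 kb in WT libraries. Within the gene span alone the calls were lost, at −0.87 (adjusted p = 0.142) at 60 h and −1.03 (adjusted p = 0.130) at 0 h. At 60 h the call was also lost under quantile scaling, which equalises the distribution of lengths between libraries (−0.50, adjusted p = 0.0865), with lists cut to equal numbers of peaks (−0.52, adjusted p = 0.103) and with peaks that reached a −log10 q of 5 (−0.91, adjusted p = 0.0838). The gene table used gives no strand, so ends are named by coordinate.

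**Figure D1:**
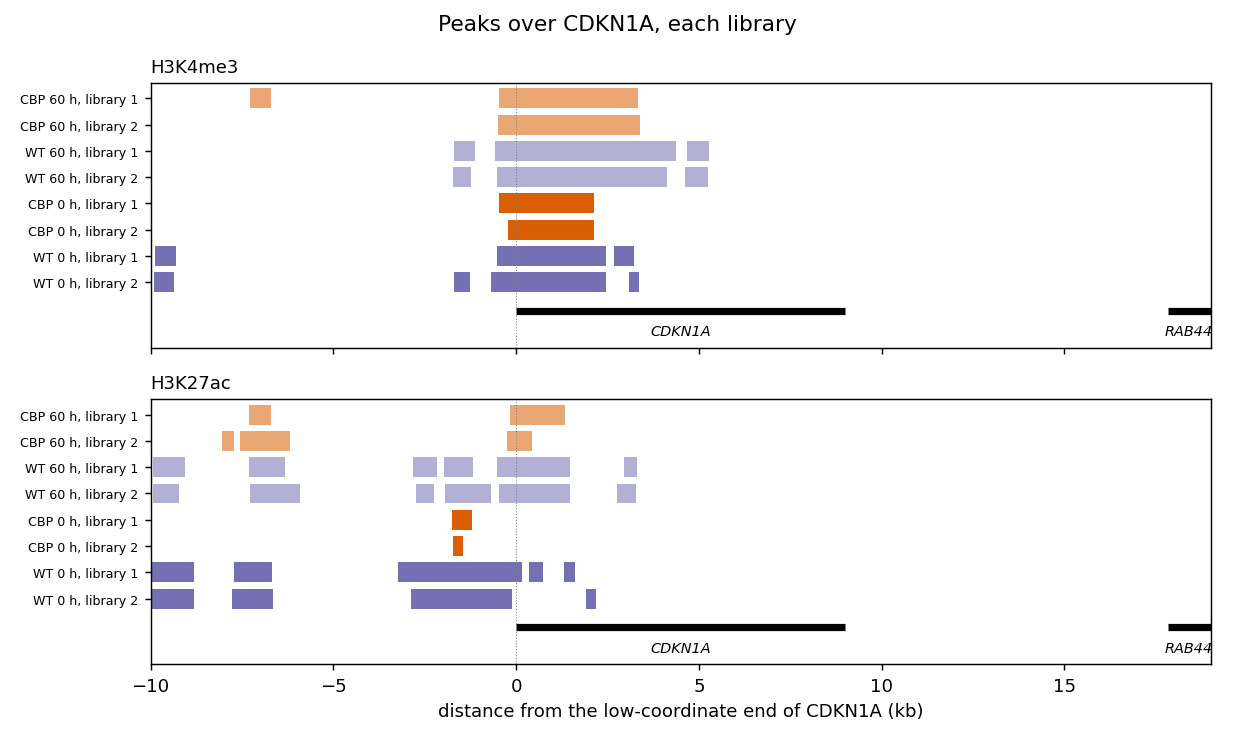
Peaks of H3K4me3 and H3K27ac over CDKN1A and 10 kb on either side, as distance in kb from the low-coordinate end of the gene. Each row is a library, bars are peaks, CBP is orange and WT purple, and the 60 h rows are paler. The H3K27ac bars 9.6 kb below the gene are missing in all 4 CBP rows, and the H3K4me3 bar over the low end is longest in WT at 60 h.

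H3K4me3 at CDKN1A moved the same way. It covered 4.37 and 3.88 kb in CBP and 6.09 and 5.80 kb in WT libraries at 60 h. The 0 h lengths were 2.59 and 2.36 kb in CBP and 4.09 and 4.40 kb in WT libraries. At each time neither group overlapped the other. The changes with CBP were −0.48 ± 0.07 at 60 h (adjusted p = 0.00661) and −0.68 ± 0.07 at 0 h (adjusted p = 0.000839). A single region over the low end, chr7:32354087-32359138, was in all 8 libraries, and its length was 3.80 and 3.88 kb in CBP and 4.94 and 4.66 kb in WT libraries at 60 h. At 0 h the lengths were 2.59 and 2.36 kb in CBP and 3.53 and 3.42 kb in WT libraries. Among peaks that reached a −log10 q of 5 the calls were lost, at −0.43 (adjusted p = 0.132) at 60 h and −0.41 (adjusted p = 0.0841) at 0 h, and they were lost when 2 kb either side of each gene end was counted in place of the window (−0.27, adjusted p = 0.119, and −0.22, adjusted p = 0.104).

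CDKN1B, at chr5:59731224-59735831 (gene 397584), encodes p27, which accumulates in resting cells. Its H3K27ac covered 6.25 and 6.31 kb in CBP and 11.4 and 11.08 kb in WT libraries at 60 h. Libraries at 0 h held 2.37 and 2.22 kb in CBP and 6.14 and 6.05 kb in WT libraries. The 2 libraries of a group were close, and CBP lay below WT at each time, with changes of −0.79 ± 0.07 at 60 h (adjusted p = 0.000698) and −1.24 ± 0.07 at 0 h (adjusted p = 0.000622). Its H3K27ac fell into 6 regions. The longest, over the high-coordinate end, chr5:59732859-59738204, had 4.14 and 3.5 kb in CBP and 5.35 and 5.27 kb in WT libraries at 60 h. At 0 h there were 1.56 and 1.08 kb in CBP and 1.43 and 2.04 kb in WT libraries. The region at chr5:59727371-59730211, centred 2.4 kb below the low end, was absent in CBP at 0 h and had 1.52 and 1.06 kb in WT at 0 h. By the authors' −log10 p, the strongest CDKN1B peak stood at percentile 98.3 and 96.2 of its list in CBP and 99.6 and 99.4 in WT libraries at 60 h. At 0 h it stood at 75.2 and 62.7 in CBP and 98.6 and 98.2 in WT libraries. Both calls were lost under quantile scaling (−0.25, adjusted p = 0.227, at 60 h and −0.37, adjusted p = 0.0894, at 0 h) and within the gene span (−0.43, adjusted p = 0.262, and −0.44, adjusted p = 0.350) and at 2 kb either side of gene ends (−0.44, adjusted p = 0.0940, and −0.28, adjusted p = 0.410). The 60 h call was also lost with peaks that reached a −log10 q of 5 (−0.90, adjusted p = 0.215).

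At CDKN1B, H3K4me3 was lower with CBP at 0 h. It covered 9.39 and 9.86 kb in CBP and 9.29 and 10.3 kb in WT libraries at 60 h, which overlap, and 7.63 and 7.49 kb in CBP against 10.1 and 10.1 kb in WT libraries at 0 h. The change with CBP was −0.02 ± 0.05 at 60 h (adjusted p = 0.831) and −0.39 ± 0.05 at 0 h (adjusted p = 0.00200). The difference between these effects, 60 h minus 0 h, was 0.37 ± 0.08 (adjusted p = 0.0102). Under quantile scaling it was 0.01 (adjusted p = 0.914), and the 0 h change was −0.10 (adjusted p = 0.217). Within the gene span the difference was 0.24 (adjusted p = 0.263) and the 0 h change −0.16 (adjusted p = 0.285), and at 2 kb either side of gene ends they were 0.12 (adjusted p = 0.302) and −0.14 (adjusted p = 0.119).

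CDKN1C, at chr2:2019391-2022092 (gene 110259225), encodes p57, the imprinted CIP/KIP member. H3K4me3 covered 1.54 and 1.20 kb of its window in CBP and 2.63 and 2.77 kb in WT libraries at 60 h, was listed at 0 in both CBP libraries at 0 h, and covered 0.477 and 0.426 kb in WT libraries at 0 h. The order was the same in every pair, with CBP below WT at each time and 60 h above 0 h in each treatment. With CBP the change was −0.78 ± 0.10 at 60 h (adjusted p = 0.00350). The difference at 0 h was called (adjusted p = 0.000829), but a change against libraries at 0 depends on the added 500 bp, and no size is given. That call was lost with peaks that reached a −log10 q of 5 (adjusted p = 0.238), and both calls with lists cut to equal numbers of peaks (adjusted p = 0.0645 at 60 h and 0.260 at 0 h). In WT libraries the change from 60 h over 0 h was 1.75 ± 0.10 (adjusted p = 4.28e-05), above that of 98.1% of the genes tested, and it was called under every alternative that gave a value. A region at chr2:2017801-2020033 over the low end was listed in all 4 libraries at 60 h and in none at 0 h, at 0.761 and 0.389 kb in CBP and 1.84 and 1.91 kb in WT. H3K27ac was listed in a single library, WT at 60 h, with 0.316 kb, and CDKN1C did not pass the filter for H3K27ac.

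**Figure D2:**
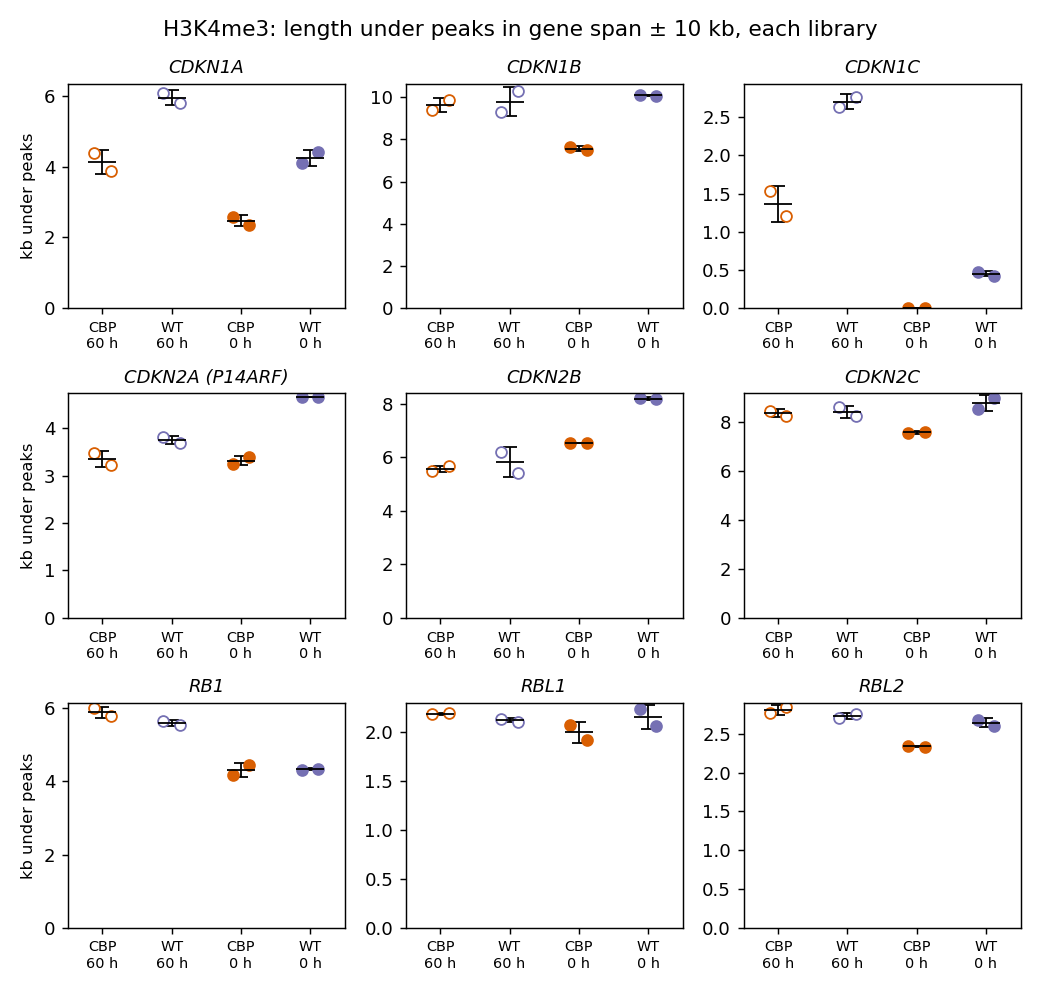
Length under H3K4me3 peaks in kb (vertical axes, each from 0) for the 9 genes by group, with CBP in orange and WT in purple, open circles for 60 h and filled circles for 0 h. Each circle is a library, and bars show the mean ± SD of 2 libraries. CDKN1C is at 0 in both CBP libraries at 0 h, while RBL1 stays between 1.92 and 2.23 kb in all 8.

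For the CIP/KIP genes as a group, H3K4me3 was lower with CBP at 3 of 3 genes at 0 h and at 2 of 3 at 60 h, and H3K27ac at 2 of 2 genes tested at each time. Across all genes tested, H3K4me3 was lower with CBP in 7.69% at 60 h and 44.6% at 0 h, and H3K27ac in 46.4% at 60 h and 33.5% at 0 h. The median H3K4me3 change over the 3 genes was −0.48 at 60 h and −0.68 at 0 h, beside 0.04 at 60 h and −0.20 at 0 h over all 13931 genes tested.

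The INK4/ARF locus lies on chromosome 1, with CDKN2B at chr1:200666250-200770880 (gene 397227) and CDKN2A at chr1:200774496-200799149 (gene 396553). CDKN2B encodes p15 and CDKN2A encodes p16 and ARF, the MDM2 inhibitor that links the locus to p53. The spans are 3.6 kb apart, so the windows share 16.4 kb and the 2 genes' values are not independent. H3K27me3 covered 1.94 and 0 kb of the CDKN2A window in CBP and 1.63 and 2.97 kb in WT libraries at 60 h. At 0 h it covered 20.4 and 28.6 kb in CBP libraries, which is 45.8 and 64.0% of the window, and 0 and 1.30 kb in WT libraries. CBP libraries at 0 h stood above the other 6 libraries. Of those, CBP at 60 h overlapped each WT group. Both WT libraries at 60 h lay above both at 0 h, which limma did not call (adjusted p = 0.345). CDKN2B had 0.436 and 0 kb in CBP and 0.393 and 0.484 kb in WT libraries at 60 h. At 0 h it covered 5.44 and 9.18 kb in CBP against 0 and 0.490 kb in WT libraries.

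At 0 h H3K27me3 was higher with CBP at all 3 of the 3 genes that passed the filter, by 4.70 ± 0.91 at CDKN2A (adjusted p = 0.00445) and 3.43 ± 0.49 at CDKN2B (adjusted p = 0.00143). CDKN1C passed the filter only through the CBP libraries at 0 h, the group where it is high, so its call adds no support. Of the 5103 genes tested for this mark, 77.0% were also called higher, with a median change of 2.22, so the count of members is near the background. The size at CDKN2A was above that of 97.7% of the genes tested and the size at CDKN2B above 82.2%. CDKN1C, the third gene, had 0.296 and 0 kb in CBP and none in WT libraries at 60 h. The 0 h lengths were 5.18 and 0.541 kb in CBP and none in WT libraries (adjusted p = 0.0328 at 0 h), a call lost when either WT library at 0 h was left out (adjusted p = 0.108 without the first, 0.106 without the second), without any library of 60 h (0.0555 to 0.0643), under quantile scaling (0.681) and with an added length of 2000 bp (0.0560). At 60 h none of the 3 genes was called in limma (adjusted p 0.441 to 0.860, unadjusted p below 0.05 in 0 of 3), where 11.4% of genes tested were higher and 2.53% lower.

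Within CBP libraries, H3K27me3 was lower at 60 h than at 0 h at CDKN2A (−4.48 ± 0.91, adjusted p = 0.0104) and CDKN2B (−3.47 ± 0.49, adjusted p = 0.00356), 2 of 3 genes tested, beside 42.9% of all genes lower and 6.33% higher. The CDKN2A call was lost without the first CBP library at 0 h (−4.72, adjusted p = 0.0552), without the second (−4.25, adjusted p = 0.0569) and without the second CBP library at 60 h (−3.34, adjusted p = 0.0521), and with 100 bp added in place of 500 bp (adjusted p = 0.0570). With lists cut to equal numbers of peaks the changes were −1.84 (adjusted p = 0.197) at CDKN2A and −0.58 (adjusted p = 0.538) at CDKN2B. Within WT libraries limma called none of the 3 genes between 60 h and 0 h, and none had an unadjusted p below 0.05, where 22.5% of genes were higher and 0.490% lower. The difference between the CBP effects at 60 h and 0 h was −6.00 ± 1.29 at CDKN2A (adjusted p = 0.0121) and −3.88 ± 0.69 at CDKN2B (adjusted p = 0.00687), where 53.7% of all genes had a lower value called and 3.51% a higher one. With lists cut to equal numbers of peaks these differences were −1.54 (adjusted p = 0.430) and −0.58 (adjusted p = 0.683), and under quantile scaling that of CDKN2B was −1.40 (adjusted p = 0.218).

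The listed H3K27me3 at the locus rests on lists of very unequal length. As a share of all bases in its list, the joined window of the 2 genes held 0.0657 and 0.131% in CBP libraries at 0 h and 0 and 0.0574% in WT libraries at 0 h, and so the second WT library came near the first CBP library on that scale. When all 8 lists were trimmed to the same number of peaks by the authors' −log10 p, CDKN2A changed by 1.57 (adjusted p = 0.303) and CDKN2B by 1.04 (adjusted p = 0.332) at 0 h, and neither was called. Under quantile scaling CDKN2A changed by 2.16 (adjusted p = 0.0757) and CDKN2B by 0.68 (adjusted p = 0.349). A −log10 q of 5 was reached by 0 and 1.05% of the peaks of the WT lists at 0 h, so a limit there leaves next to nothing on the WT side and gives no comparison. List length and treatment cannot be told apart here.

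Most of the H3K27me3 in CBP at 0 h lay clear of the H3K4me3 peaks of the locus. The longest region, chr1:200782868-200793427, sits inside the CDKN2A span and held 1.14 and 0 kb in CBP and 0.396 and 0 kb in WT libraries at 60 h, and 8.59 and 10.6 kb in CBP and 0 and 0.864 kb in WT libraries at 0 h. A region past the high end, chr1:200801263-200809315, was listed in the CBP libraries at 0 h alone, at 3.62 and 8.05 kb. The joined window held 22.8 and 33.0 kb of H3K27me3 in CBP libraries at 0 h, of which 4.24 and 2.64 kb coincided with H3K4me3 peaks of that condition. That is 18.6 and 8.0% of the H3K27me3. H3K4me3 itself covered 4.26 and 4.27% of the window in CBP libraries at 0 h, so the overlap was above that share. Separate libraries were compared, so this does not show both marks on the same chromosomes.

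**Figure D3:**
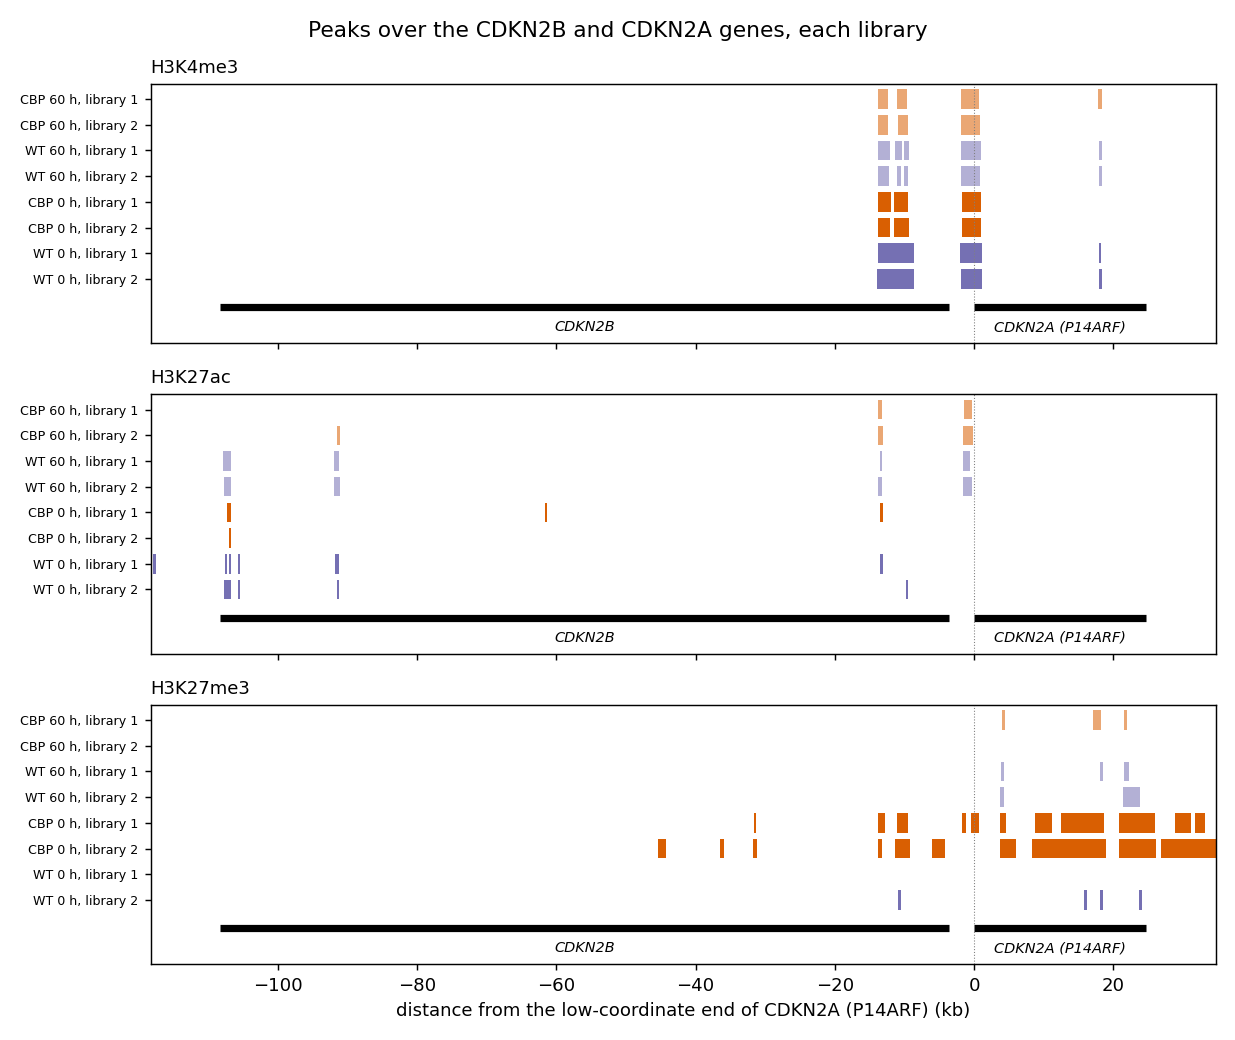
Peaks of the 3 marks over CDKN2B and CDKN2A as distance in kb from the low-coordinate end of CDKN2A, with black bars for gene spans. Each row is a library, CBP is orange and WT purple, and 60 h rows are paler. H3K27me3 bars cover 45.8 and 64.0% of the CDKN2A window in the CBP rows at 0 h, and the H3K27ac bar just below CDKN2A is present in the 4 rows at 60 h and in none at 0 h.

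H3K4me3 at the locus was lower with CBP at 0 h at both genes. H3K4me3 over CDKN2A covered 3.47 and 3.23 kb in CBP and 3.81 and 3.68 kb in WT libraries at 60 h. At 0 h the lengths were 3.25 and 3.38 kb in CBP against 4.66 and 4.65 kb in WT libraries. The change with CBP was −0.14 ± 0.05 at 60 h, which was not called (adjusted p = 0.0864), and −0.43 ± 0.05 at 0 h (adjusted p = 0.000872). Within the gene span the 0 h value was −0.40 (adjusted p = 0.0755). CDKN2B had 5.48 and 5.65 kb in CBP and 6.20 and 5.42 kb in WT libraries at 60 h, which overlap, and 6.52 and 6.53 kb in CBP against 8.21 and 8.15 kb in WT libraries at 0 h, a change of −0.31 ± 0.06 at 0 h (adjusted p = 0.00814), which was −0.04 (adjusted p = 0.576) under quantile scaling and −0.33 (adjusted p = 0.0935) at 2 kb either side of gene ends. The region at chr1:200760609-200765797, inside the CDKN2B span, was 5.12 and 5.19 kb long in WT libraries at 0 h and between 2.71 and 3.83 kb in the other 6.

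Between the times, H3K4me3 changed against the direction of most genes at both genes in WT and at CDKN2B in CBP. In WT libraries it was lower at 60 h than at 0 h at CDKN2A (−0.28 ± 0.05, adjusted p = 0.00349) and CDKN2B (−0.46 ± 0.06, adjusted p = 0.00131), where 5.80% of genes tested were lower and 44.2% higher. The CDKN2A call was lost within the gene span (−0.06, adjusted p = 0.754). Counting 2 kb either side of gene ends ended both calls (−0.10, adjusted p = 0.0873, at CDKN2A and −0.14, adjusted p = 0.409, at CDKN2B). The region over the low end of CDKN2A held 2.87 and 2.71 kb in WT at 60 h and 3.10 and 2.96 kb at 0 h. The region inside the CDKN2B span, which reaches into the CDKN2A window, held 3.33 and 2.71 kb at 60 h and 5.12 and 5.19 kb at 0 h. The CDKN2A call thus cannot be assigned to CDKN2A alone. In CBP libraries CDKN2A was not called (0.01 ± 0.05, adjusted p = 0.829). There CDKN2B was lower at 60 h (−0.21 ± 0.06, adjusted p = 0.0160), where 1.30% of genes were lower and 82.1% higher. That call was lost without the first or second CBP library at 0 h (adjusted p = 0.0576 and 0.0595) or the first at 60 h (0.0746), and the sign turned to 0.19 (adjusted p = 0.214) when 2 kb either side of each gene end was counted in place of the window. H3K27ac at CDKN2A was instead higher at 60 h. It covered 1.11 and 1.41 kb in CBP and 1.09 and 1.22 kb in WT libraries at 60 h, against none in CBP and 0 and 0.320 kb in WT libraries at 0 h, with all of the 60 h length in chr1:200772831-200774306, between the 2 genes. In WT the change at 60 h was 1.37 ± 0.25 (adjusted p = 0.00712), and in CBP, where the 0 h libraries were listed at 0, the adjusted p was 0.00372. CDKN2A passed the H3K27ac filter only through libraries at 60 h, where it is high, so neither call adds support. The WT call was lost under quantile scaling (0.59, adjusted p = 0.114) and the CBP call with peaks that reached a −log10 q of 5 (adjusted p = 0.405). CDKN2B had 1.65 and 2.32 kb of H3K27ac in CBP and 3.32 and 3.58 kb in WT libraries at 60 h. Libraries at 0 h held 1.18 and 0.290 kb in CBP and 2.41 and 2.11 kb in WT libraries, with no call in any comparison (adjusted p = 0.185 for CBP at 60 h and 0.0506 at 0 h).

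CDKN2C, at chr6:161160290-161166681 (gene 100515210), encodes p18. Its H3K27ac covered 2.87 and 3.21 kb in CBP and 5.33 and 5.54 kb in WT libraries at 60 h. At 0 h there were 1.09 and 0.709 kb in CBP and 1.21 and 1.81 kb in WT libraries. H3K27ac at CDKN2C was thus longest in WT at 60 h. It was higher at 60 h in WT (1.58 ± 0.20, adjusted p = 0.00198), a call held under every alternative that gave a value, and in CBP (1.35 ± 0.20, adjusted p = 0.00473), which was lost under quantile scaling (0.63, adjusted p = 0.0636). With CBP it was lower at 60 h (−0.75 ± 0.20, adjusted p = 0.0305) and not called at 0 h (adjusted p = 0.112). The call at 60 h was lost without any of the 4 libraries at 60 h (adjusted p = 0.0782 to 0.119) and was −0.05 (adjusted p = 0.891) under quantile scaling. It was also lost with lists cut to equal numbers of peaks (adjusted p = 0.161), within the gene span (adjusted p = 0.243) and with 100 bp added (adjusted p = 0.0636). H3K4me3 stayed between 7.55 and 9.01 kb in all 8 libraries, with 8.49 and 8.26 kb in CBP and 8.62 and 8.25 kb in WT at 60 h and 7.55 and 7.63 kb in CBP and 8.55 and 9.01 kb in WT at 0 h. The H3K4me3 change with CBP at 0 h was −0.20 ± 0.04 (adjusted p = 0.0102). It was lost without the second WT library at 0 h (−0.16, adjusted p = 0.0568), turned to 0.08 under quantile scaling and was −0.08 (adjusted p = 0.0977) at 2 kb either side of gene ends. An H3K4me3 region at chr6:161173128-161175376 and 2 short H3K27ac regions lie at the neighbouring FAF1 span.

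With CBP, H3K4me3 was called at 1 of the 3 retinoblastoma genes, RBL2 at 0 h. RB1, at chr11:19186754-19317642 (gene 100151828), the founding tumour suppressor of the family, had 5.99 and 5.79 kb in CBP and 5.64 and 5.54 kb in WT libraries at 60 h. At 0 h it covered 4.17 and 4.44 kb in CBP and 4.31 and 4.35 kb in WT libraries. Groups of the same time were close, and CBP was not called at 60 h (0.07 ± 0.04, adjusted p = 0.332) or at 0 h (−0.01 ± 0.04, adjusted p = 0.939). H3K4me3 was higher at 60 h in WT (0.34 ± 0.04, adjusted p = 0.00125) and in CBP (0.41 ± 0.04, adjusted p = 0.000212). The WT call was lost under quantile scaling (0.09, adjusted p = 0.132) and within the gene span (0.05, adjusted p = 0.468). Under quantile scaling the sign in CBP turned to −0.15. The added length lay in a single region over the high-coordinate end, chr11:19315512-19319293, which held 3.78 and 3.52 kb in CBP and 3.41 and 3.46 kb in WT libraries at 60 h, against 2.16 and 2.24 kb in CBP and 2.17 and 2.06 kb in WT libraries at 0 h.

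H3K27ac at RB1 covered 3.29 and 1.99 kb in CBP and 4.13 and 3.92 kb in WT libraries at 60 h. The 0 h lengths were 1.19 and 0.976 kb in CBP and 2.84 and 3.34 kb in WT libraries. CBP was lower at 0 h (−1.18 ± 0.22, adjusted p = 0.0124) and not called at 60 h (−0.56 ± 0.22, adjusted p = 0.0896). The 0 h call was lost without the second CBP library (−1.08, adjusted p = 0.0701), the first WT library (−1.28, adjusted p = 0.0529) or the second WT library at 0 h (−1.08, adjusted p = 0.0642), under quantile scaling (−0.36, adjusted p = 0.183) and at 2 kb either side of gene ends (−0.51, adjusted p = 0.786). Most of the loss was in chr11:19218069-19220230, which lies inside the RB1 span and overlaps LPAR6, a receptor gene within RB1. That region held 0.563 and 0.532 kb in CBP libraries and 2.11 and 2.1 kb in WT libraries at 0 h, so it cannot be assigned to RB1 alone.

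RBL1, at chr17:40201214-40279318 (gene 100153296), encodes p107, and none of the 5 limma comparisons called it in H3K4me3 at an adjusted or unadjusted p below 0.05 (2.18 and 2.19 kb in CBP and 2.13 and 2.103 kb in WT at 60 h, 2.07 and 1.92 kb in CBP and 2.23 and 2.06 kb in WT at 0 h). Its H3K27ac was 0.296 and 0 kb in CBP and 0.551 and 0.513 kb in WT libraries at 60 h. At 0 h the lengths were 0.670 and 0 kb in CBP and 0.962 and 0.982 kb in WT libraries. CBP lay below WT in every pair, without a call (adjusted p = 0.238 at 60 h and 0.174 at 0 h). RBL2, at chr6:31757718-31802047 (gene 100627715), encodes p130, the pocket protein of resting cells. Its H3K4me3 was 2.77 and 2.85 kb in CBP and 2.71 and 2.75 kb in WT libraries at 60 h. Libraries at 0 h held 2.34 and 2.34 kb in CBP and 2.69 and 2.61 kb in WT libraries. CBP was lower at 0 h (−0.15 ± 0.04, adjusted p = 0.0268), which turned to 0.08 (adjusted p = 0.192) under quantile scaling, and which was lost without any of the 4 libraries at 0 h (adjusted p = 0.0579 to 0.102), within the gene span (adjusted p = 1) and over the whole length of overlapping peaks (adjusted p = 0.102). H3K27ac at RBL2 was listed at 0 in all 4 libraries at 0 h and covered 0.565 and 0.634 kb in CBP and 0.364 and 0.232 kb in WT libraries at 60 h. This was the single H3K27ac increase with CBP called in the windows of the 9 genes (0.47 ± 0.11, adjusted p = 0.0206, with 2.83% of all genes higher). It was lost without the second CBP library (0.42, adjusted p = 0.0540) or the second WT library at 60 h (0.35, adjusted p = 0.100), and peaks that reached a −log10 q of 5 gave −0.12 (adjusted p = 0.838) and lists of equal length 0.27 (adjusted p = 0.671). The CBP length lies in chr6:31747645-31748351, within the neighbouring AKTIP span, as does that of the second WT library at 60 h. The 0.364 kb of the first WT library lies in chr6:31800887-31801250, inside the RBL2 span, where no CBP library had a peak. The increase thus cannot be assigned to RBL2.

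**Figure D4:**
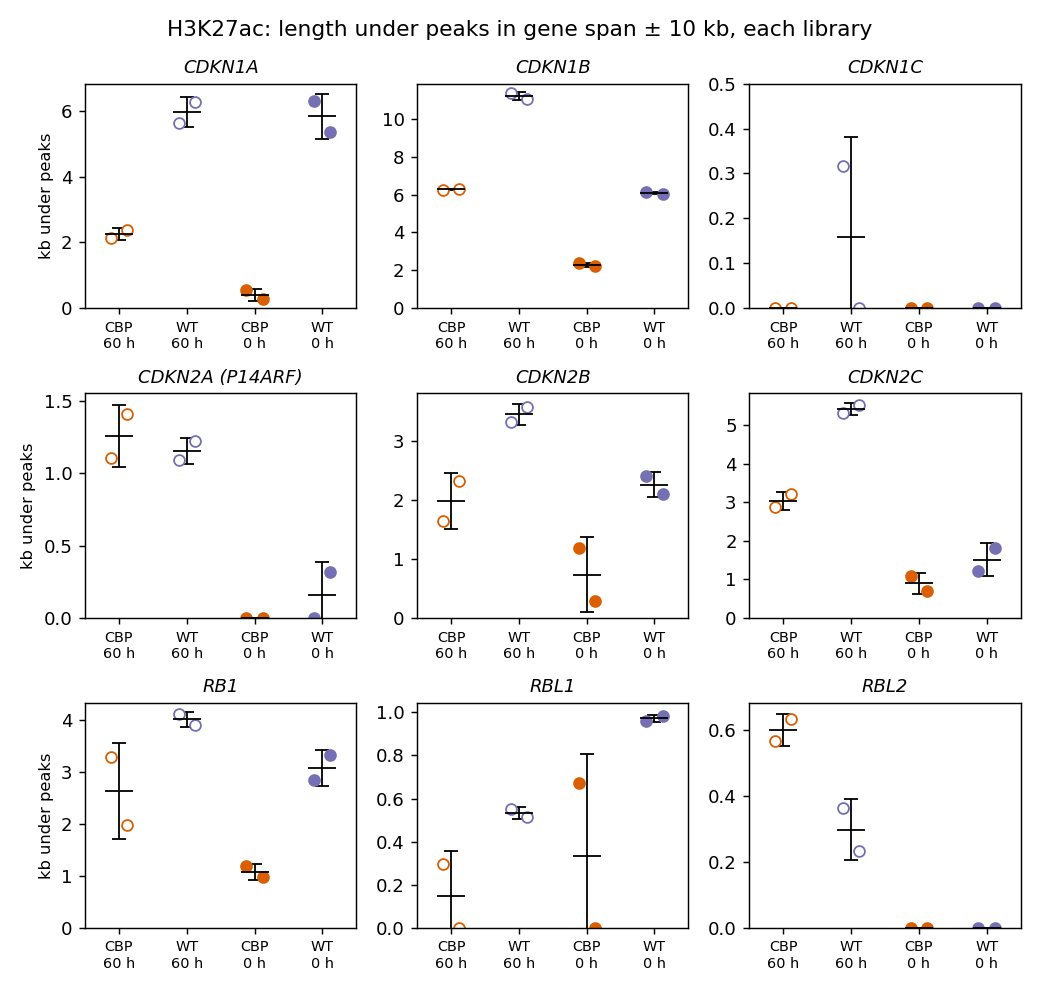
Length under H3K27ac peaks in kb (vertical axes, each from 0) for the 9 genes by group, with CBP in orange and WT in purple, open circles for 60 h and filled circles for 0 h. Each circle is a library, and bars show the mean ± SD of 2 libraries, cut at 0. Both CBP libraries lie below both WT libraries at each time at CDKN1A, CDKN1B, CDKN2B, CDKN2C, RB1 and RBL1. Of these, CDKN1A and CDKN1B were called lower at both times, and how many of all genes separate so was not counted. CDKN1A has the same level in WT at 60 h (5.64 and 6.29 kb) as in WT at 0 h (6.32 and 5.35 kb).

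Over all 9 genes, H3K4me3 was lower with CBP at 2 genes and higher at none at 60 h, and lower at 7 and higher at none at 0 h, among them CDKN2C and RBL2 whose sign turned under quantile scaling. Of all genes 11.4% were higher at 60 h and 1.11% at 0 h. Lower were 7.69% of all genes at 60 h and 44.6% at 0 h, where the median of all genes was −0.20. Whether the 0 h count follows that shift was not tested. H3K27ac was lower at 3 of 8 genes tested at 60 h and at 3 of 8 at 0 h, shares close to the 46.4% and 33.5% of all genes, and 1.49% of all genes were higher at 0 h. The CBP effect differed between 60 h and 0 h in H3K4me3 at 4 genes, CDKN1B (0.37 ± 0.08, adjusted p = 0.0102), CDKN2A (0.29 ± 0.07, adjusted p = 0.0146), CDKN2C (0.19 ± 0.06, adjusted p = 0.0425) and RBL2 (0.18 ± 0.06, adjusted p = 0.0436), each higher at 60 h, where 40.8% of all genes had such a call and 3.52% the opposite one. Under quantile scaling the signs of CDKN2C and RBL2 turned to −0.16 and −0.09. The CDKN2A call was lost under quantile scaling (0.01, adjusted p = 0.895), with peaks that reached a −log10 q of 5 (0.14, adjusted p = 0.194) and with lists cut to equal numbers of peaks (0.20, adjusted p = 0.0553). It was also lost within the gene span (0.13, adjusted p = 0.640) and at 2 kb either side of gene ends (0.07, adjusted p = 0.337). The CDKN1B, CDKN2C and RBL2 calls were also lost at 2 kb (0.12, −0.02 and 0.10), CDKN1B and RBL2 within the gene span (0.24 and −0.02) and CDKN2C with lists cut to equal numbers of peaks (adjusted p = 0.0502). The RBL2 call was lost without any 1 of the 8 libraries (adjusted p = 0.0590 to 0.102) and the CDKN2C call without any of 6 (0.0653 to 0.119), but not without the first WT library of either time. In H3K27ac it differed at CDKN1A (1.59 ± 0.25, adjusted p = 0.00852) and CDKN1B (0.45 ± 0.10, adjusted p = 0.0275), 2 of 8 genes tested, both with a higher value at 60 h, beside 11.2% of all genes higher and 18.2% lower. The CDKN1A difference was 0.16 (adjusted p = 0.863) within the gene span and 0.51 (adjusted p = 0.445) at 2 kb either side of gene ends. The CDKN1B difference was 0.01 (adjusted p = 0.985) within the span, −0.16 (adjusted p = 0.665) at 2 kb and 0.13 (adjusted p = 0.650) under quantile scaling. It was 0.21 (adjusted p = 0.435) with lists cut to equal numbers of peaks and 1.73 (adjusted p = 0.132) with peaks that reached a −log10 q of 5. Both were lost when a WT library at 60 h was left out, at an adjusted p of 0.0570 and 0.0514 for CDKN1A and 0.0901 and 0.107 for CDKN1B without the first and second. CDKN1B was also lost without the second CBP library at 0 h (0.0576), the first WT library at 0 h (0.0752) or the second (0.0695). Comparisons within a time and between times share libraries, so their counts are not independent.

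**Figure D5:**
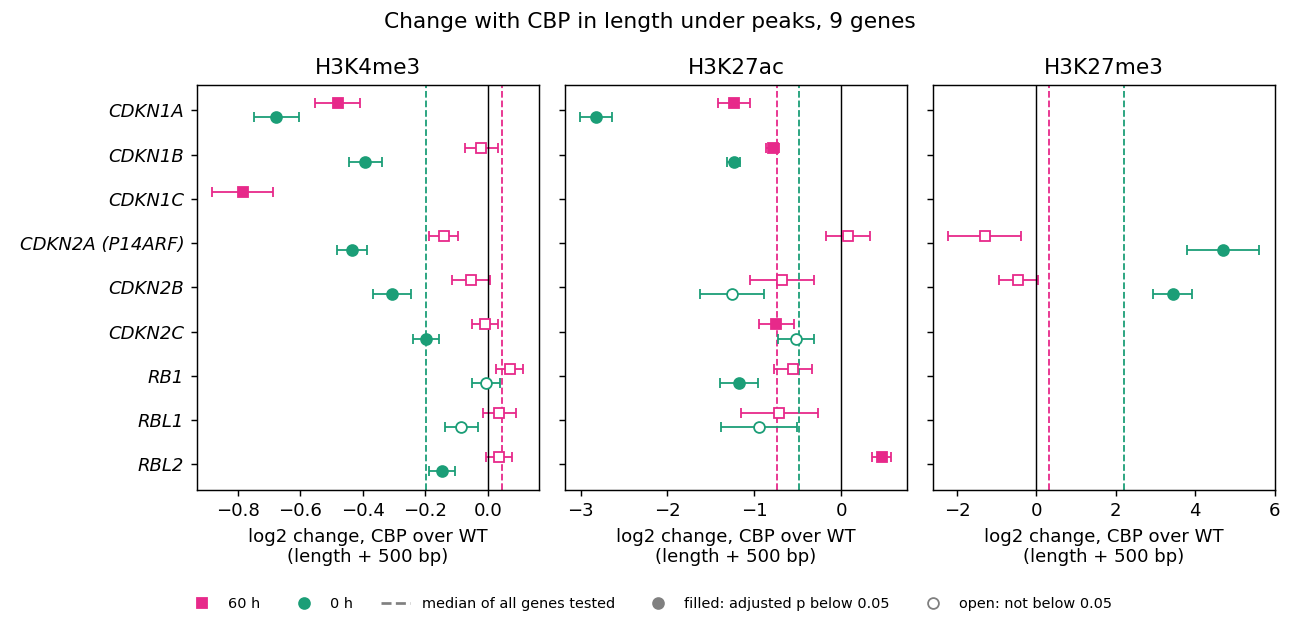
Log2 change of length plus 500 bp with CBP over WT (horizontal axes) for the 9 genes and 3 marks, at 60 h (squares) and 0 h (circles), with SE bars. Filled symbols have an adjusted p below 0.05, dashed lines are the median of all genes tested, and genes with a group at 0 in both libraries or not tested have no symbol. CDKN1A lies left of the dashed line of its own time in both H3K4me3 and H3K27ac.

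Between 60 h and 0 h, H3K4me3 in WT libraries was higher at 3 genes (CDKN1A, CDKN1C and RB1) and lower at 2 (CDKN2A and CDKN2B), beside 44.2% of all genes higher and 5.80% lower, and quantile scaling gave 1 higher and 6 lower. CDKN1A rose by 0.44 ± 0.07 (adjusted p = 0.00308). That call was lost under quantile scaling (0.19, adjusted p = 0.0601) and at 2 kb either side of gene ends (0.12, adjusted p = 0.316). In CBP libraries 6 genes were higher (CDKN1A, CDKN1B, CDKN1C, CDKN2C, RB1 and RBL2) and CDKN2B was lower, beside 82.1% of all genes higher and 1.30% lower. Quantile scaling gave 1 higher and 7 lower there, with the signs of CDKN1B (−0.31), CDKN2C (−0.50), RB1 (−0.15) and RBL2 (−0.27) turned, and each of these 4 changes was smaller than the median of all genes, 0.46. CDKN2C in CBP (0.13 ± 0.04, adjusted p = 0.0229) was lost without either CBP library at 0 h (0.0845 and 0.0633) or the first at 60 h (0.0938). H3K27ac in WT libraries was higher at 60 h at 4 of 8 genes tested (CDKN1B, CDKN2A, CDKN2C and RBL2) and lower at none, beside 46.7% of all genes higher and 10.4% lower. In CBP libraries it was higher at 6 of 8 (those 4 with CDKN1A and RB1) and lower at none, beside 31.3% of all genes higher and 8.13% lower. CDKN2A and RBL2 passed the H3K27ac filter only through libraries at 60 h, where they are high, so their calls add no support. CDKN1A changed by 0.03 ± 0.18 in WT (adjusted p = 0.901) and by 1.62 ± 0.18 in CBP (adjusted p = 0.00184), or 0.79 (adjusted p = 0.142) at 2 kb either side of gene ends. For RB1 in CBP (0.96 ± 0.22, adjusted p = 0.0207) the call was lost without the first or second CBP library at 0 h (0.0576 and 0.0985), and counting 2 kb either side of the gene ends gave −0.05 (adjusted p = 1). It was also lost under quantile scaling (0.23, adjusted p = 0.360), with lists cut to equal numbers of peaks (0.39, adjusted p = 0.199) and with peaks that reached a −log10 q of 5 (adjusted p = 0.405).

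Peaks merged over the 8 libraries of a mark gave 24 H3K4me3 regions at the 9 genes, of which 14 were in all 8 libraries. They gave 33 H3K27ac regions, of which 4 were in all 8, and 16 H3K27me3 regions, of which none was. Regions listed in neither CBP library and in both WT libraries numbered 5 of 26 for H3K27ac at 60 h (22.7% of all regions) and 7 of 25 at 0 h (29.7%), and regions with the opposite pattern numbered none at either time (4.61 and 3.64% of all regions). For H3K4me3, 3 of 22 regions were in neither CBP library and both WT libraries at 60 h (4.51% of all regions) and 4 of 21 at 0 h (9.49%), and the opposite pattern was seen at none (5.06 and 0.673% of all regions). For H3K27me3, 5 of 16 regions were in both CBP libraries and neither WT library at 0 h, beside 44.7% of all regions, and none had the opposite pattern (0.0145%). At 60 h none of 4 regions had either pattern (19.0% of all regions were in both CBP libraries alone and 4.33% in both WT libraries alone).

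Between times in WT, 2 of 23 H3K4me3 regions were in both 60 h libraries alone (8.82% of all regions) and 1 in both 0 h libraries alone (5.10%). In CBP, 2 of 19 were in both 60 h libraries alone (15.0%) and none in both 0 h libraries alone (1.24%). H3K27ac had 3 of 32 regions in both 60 h libraries alone (25.4%) and 2 in both 0 h libraries alone (16.1%) in WT, and 5 of 22 (25.4%) and 1 (14.8%) in CBP. H3K27me3 had 1 of 4 regions in both 60 h libraries alone (32.1%) and none in both 0 h libraries alone (0.664%) in WT. In CBP it had none of 16 in both 60 h libraries alone (6.69%) and 5 in both 0 h libraries alone (18.7%).

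Other genes of the pathway were read in the same way. The list called MuvB holds genes of the MuvB core of the DREAM complex, which contains RBL1 or RBL2. It also holds MYBL2 and FOXM1, which are not DREAM subunits. At 60 h H3K27ac was lower with CBP at 4 of 9 tested genes of the G1 cyclins, CDKs and their activators (median −0.95). It was lower at 4 of 7 E2F and DP genes (−0.84), 5 of 6 genes of the MuvB list (−1.59) and 4 of 10 E2F targets (−0.85). In the p53 arm 6 of 10 genes were lower (−1.20), as was 1 of 4 Polycomb genes (−0.45). None of these lists had a gene called higher, beside 46.4% of all genes lower and a median of −0.74 over all genes. The largest decrease in each list at 60 h was at CCND1, TFDP2, LIN37, RRM2, MDM2 and EED. MDM2, the ligase that destroys p53 and that ARF inhibits, had no H3K27ac in either CBP library and 1.52 and 1.49 kb in WT libraries at 60 h (adjusted p = 0.000175). At 0 h H3K27ac was lower at 2 of 9, 2 of 7, 2 of 6, 2 of 10, 6 of 10 and 3 of 4 genes of those lists in that order, and higher at 1 E2F target (MCM3) and 1 p53 gene (GADD45A), with medians between −1.26 and 0.05, beside 33.5% of all genes lower and a median of −0.49. CCND3, a D-type cyclin induced when myoblasts differentiate, had 0.373 and 0.363 kb in CBP and 3.47 and 1.96 kb in WT libraries at 0 h (−1.85, adjusted p = 0.00637).

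For H3K4me3 with CBP at 60 h, 2 of 10 cyclin and CDK genes were lower, 1 of 10 E2F and DP genes and 1 of 15 E2F targets were higher, and in the p53 arm 2 of 10 were higher and 1 lower. None of 7 genes of the MuvB list or 9 Polycomb genes was called in limma, with an unadjusted p below 0.05 at 0 and 4 of them. The medians of the 6 lists lay between −0.03 and 0.13, beside 11.4% of all genes higher, 7.69% lower and a median of 0.04. MDM2 was the p53-arm gene that was lower, with 2.57 and 2.74 kb in CBP and 4.39 and 4.41 kb in WT libraries (−0.63, adjusted p = 0.00582), and GADD45A, a p53 target, rose by 0.42 (adjusted p = 0.00206). At 0 h H3K4me3 was lower at 7 of 10 cyclin and CDK genes, 6 of 10 E2F and DP genes and 1 of 7 genes of the MuvB list, MYBL2. It was also lower at 5 of 15 E2F targets, 4 of 10 p53-arm genes and 4 of 9 Polycomb genes. No gene of these lists was higher, beside 44.6% of all genes lower. Their medians lay between −0.24 and −0.10, beside −0.20 over all genes. CCND1, the cyclin partner of CDK4 and CDK6, had 3.52 and 3.57 kb in CBP and 6.78 and 6.10 kb in WT libraries at 0 h (−0.78, adjusted p = 0.000275). In WT libraries CCND3 had 9.72 and 10.5 kb of H3K4me3 at 60 h and 5.56 and 5.44 kb at 0 h (0.82, adjusted p = 9.57e-05), and 13.7 and 12.5 kb of H3K27ac at 60 h and 3.47 and 1.96 kb at 0 h (2.12, adjusted p = 0.00221). For H3K27me3 at 0 h the lists with tested genes had 2 of 2, 1 of 1, 1 of 2 and 5 of 5 genes higher with CBP (cyclins and CDKs, E2F and DP, E2F targets, Polycomb), beside 77.0% of all genes. A gene can pass the filter through the CBP libraries at 0 h alone, so these counts favour an increase there.

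The gene on another chromosome whose H3K27ac length ran most like that of CDKN1A over the 8 libraries was PRIMPOL (Pearson r = 0.991), for CDKN1B it was SLA2 (r = 0.997) and for CDKN2C GSTZ1 (r = 0.995). In H3K4me3 the closest were ERICH1 for CDKN1A (r = 0.991), CUL4A for CDKN1C (r = 0.998) and NINL for RB1 (r = 0.997). Each is the highest of 9963 to 13700 genes compared over points that share 4 groups and list lengths, and is given as a description only.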

How the data were processed

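CUT&Tag peak lists of 24 libraries, 3 marks in 4 groups of 2, were analysed. The submitters' processing notes name MACS2 2.1.0, Trimmomatic and the build Sscrofa11.1. The sources used here give no aligner, options, control or depth, so the precision that depth allows is unknown. Each library has its own list, deposited in broad-peak format for H3K27me3 and in narrow-peak format for the other marks. In the files as deposited, a score column holds the display score, a ratio column the fold enrichment of MACS2 over its background, and further columns the −log10 p and −log10 q of each peak. These are the authors' values per peak and served only to rank or filter peaks within a list. A deposited summit offset was not used.

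Peak positions were merged per library, and bases under peaks in each gene span ± 10 kb were counted in Python 3.11.15 (pandas 2.3.3, numpy 2.4.6) for all protein-coding genes of the RefSeq gene table of Sscrofa11.1. A gene was tested for a mark when 2 or more of the 8 libraries held 200 bp or more, on log2(length + 500 bp) with limma 3.58.1 in R 4.3.3, 4 groups in a single fit with 4 residual degrees of freedom, p-values adjusted over all genes tested and called below 0.05. A region is a merged stretch of peaks over 8 libraries, shared at 1 bp of overlap. The fit was checked on simulated data. The named genes are the 9 members, the largest increase and decrease called in each pathway list, and the most correlated gene. The members and lists were chosen with earlier results of these data known. Alternatives were the added length, the filter, quantile scaling, stricter or equal lists, other windows, the replicate block and leaving out each library, and for the difference between CBP effects they were added after the data were seen.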

Additional observations from a re-analysis of the deposited data

Results flagged for a closer look

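The CBP effect differed between 60 h and 0 h, by limma's test of the difference itself, at 6 of the 9 genes in at least 1 mark, 60 h minus 0 h on the log2 scale. In H3K4me3 the difference was 0.37 at CDKN1B, 0.29 at CDKN2A (entry P14ARF), 0.19 at CDKN2C and 0.18 at RBL2. In H3K27ac it was 1.59 at CDKN1A and 0.45 at CDKN1B, and in H3K27me3 −6.00 at CDKN2A and −3.88 at CDKN2B. The median difference over all genes tested was 0.26 in H3K4me3, −0.15 in H3K27ac and −1.85 in H3K27me3. The CDKN1A value lay above that of 96.5% of genes tested for H3K27ac, and the CDKN2A value in H3K27me3 below all but 0.24% of genes. With lists of equal length the difference was called at 3 of these 8, CDKN1B and RBL2 in H3K4me3 and CDKN1A in H3K27ac. It was 0.20 at CDKN2A (adjusted p = 0.0553) and 0.19 at CDKN2C (adjusted p = 0.0502) in H3K4me3, 0.21 at CDKN1B in H3K27ac (adjusted p = 0.435), and −1.54 at CDKN2A (adjusted p = 0.430) and −0.58 at CDKN2B (adjusted p = 0.683) in H3K27me3, by limma.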

How the results depend on the processing

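The 51 calls of the 9 genes gave 900 alternative values, of which 740 kept direction and side of the threshold, 146 kept the direction only and 14 reversed. Quantile scaling moved the median of all genes by 0.25 in H3K4me3, 0.54 in H3K27ac and −2.30 in H3K27me3 for CBP at 0 h. It gave 4 called genes in place of 7 for H3K4me3 with CBP at 0 h (1 higher and 3 lower) and 1 in place of 4 for the H3K4me3 difference between CBP effects. For H3K27ac it gave 2 with CBP at 60 h, 1 with CBP at 0 h, 2 between times in WT and 3 in CBP. For H3K27me3 it gave 0 with CBP at 0 h and 1 for the difference. It reversed H3K4me3 at CDKN2C (0.0793) and RBL2 (0.0844) with CBP at 0 h, at CDKN1B (−0.3103), CDKN2C (−0.4954), RB1 (−0.1548) and RBL2 (−0.2706) between times in CBP, and at CDKN2C (−0.1581) and RBL2 (−0.0921) in the difference.

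Counting 2 kb either side of gene ends gave, for H3K4me3, 1 called gene with CBP at 60 h, 3 at 0 h, 2 between times in WT, 3 in CBP and 0 for the difference. It gave 1 for the H3K27ac difference, and for H3K27me3 1 with CBP at 0 h, 1 between times in CBP and 1 for the difference. It reversed CDKN2B (0.1892, H3K4me3) and RB1 (−0.0494, H3K27ac) between times in CBP, and CDKN2C (−0.0170, H3K4me3) and CDKN1B (−0.1606, H3K27ac) in the difference. The bare gene span gave 3 for H3K4me3 between times in WT, 2 for its difference, 0 for H3K27ac with CBP at 60 h and 1 for its difference, and reversed RBL2 (−0.0244) in the H3K4me3 difference. Peaks of −log10 q of at least 5 gave, for H3K27ac, 1 with CBP at 60 h, 2 between times in WT, 3 in CBP and 1 for the difference, reversing RBL2 (−0.1241) with CBP at 60 h, and for H3K27me3, where the WT lists at 0 h keep almost no peak, 1 with CBP at 0 h, 1 between times in CBP and 1 for the difference. Lists of equal length gave 2 for H3K27ac with CBP at 60 h and 1 for its difference, and 0 for H3K27me3 with CBP at 0 h, between times in CBP and in the difference. An added length of 2000 bp gave 1 for the H3K27ac difference, and 100 bp gave 1 for H3K27me3 between times in CBP. Fewer bases counted or peaks kept is part of these settings, and otherwise the cause was not tested.

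Leaving out 1 library in turn gave, for H3K4me3, 2 to 2 called genes with CBP at 60 h, 5 to 7 at 0 h, 5 to 5 between times in WT, 5 to 7 in CBP and 2 to 4 for the difference. The ranges for H3K27ac were 2 to 5, 2 to 5, 4 to 4, 5 to 6 and 0 to 3, and for H3K27me3 0 to 0, 2 to 3, 0 to 0, 1 to 2 and 2 to 3, in the same order. A lone library is there assumed to vary like the other groups.

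Differences between the first and second library correlated over genes at −0.0765 to 0.1748 between groups. Such a correlation does not register a shift shared by all genes. In H3K27ac the first list was longer than the second in every group, with 6.301 and 4.767 Mb in CBP at 0 h. WT lists at 0 h held 12.97 and 11.591 Mb. At 60 h the lengths were 11.725 and 9.258 Mb in CBP and 20.226 and 17.963 Mb in WT. In the other marks the order differed between groups. Whether the number marks a pairing or batch was not tested. With the replicate number as a block, the H3K4me3 difference between CBP effects was called at 2 genes in place of 4, CDKN2C (adjusted p = 0.0699) and RBL2 (adjusted p = 0.0717) being lost, and no other call of a gene was lost. Alternatives for the difference were chosen after seeing the data. Depth is unknown, and with 2 libraries a group the spread is poorly known.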
